A study of Mus musculus with 6 samples.

Results

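Complement component C3 and 8 genes that activate, restrain or sense it were followed through the kidney in deoxycorticosterone acetate (DOCA)-salt hypertension. The 9 genes were chosen by symbol, out of 33696 genes in the count tables, and all 9 were found: C3, C4b, Cfb, Cfi, Cfp, Serping1, C3ar1, C5ar1 and Cd55. Single cells came from 3 sham and 3 DOCA-salt mice, all male C57BL/6 mice purchased at 8 to 10 weeks of age, with 1 library per mouse. The DOCA-salt mice had lost the left kidney, and carried a 50 mg DOCA pellet and drank 1% NaCl for 21 days, whereas the sham mice had a sham operation, no pellet and ordinary water. The effects of nephrectomy, DOCA and salt therefore cannot be told apart.

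Complement is a cascade of plasma proteins that marks and destroys targets. C3 is its central component: convertases, built from C4b after classical or lectin activation or from factor B in the alternative pathway, cleave it to C3a and C3b. Factor I inactivates C3b, C1 inhibitor (Serping1) stops the classical and lectin proteases, properdin (Cfp) stabilizes the alternative convertase, and CD55 hastens convertase decay on the cell surface. C3a and C5a act through the receptors C3ar1 and C5ar1. The liver makes most circulating C3, but the renal tubule is also known to make it.

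The genes lie on the mouse genome GRCm39 as follows. C3 spans chr17:57510964-57535155, C4b chr17:34947354-34962912 and Cfb chr17:35074852-35081559, all on the minus strand. C4b and Cfb stand 111939 bases apart in the major histocompatibility region. Cfi is at chr3:129629533-129668981 on the plus strand. Serping1 (chr2:84595705-84620873), C3ar1 (chr6:122823393-122833122), C5ar1 (chr7:15980668-15993465), Cd55 (chr1:130366469-130390926) and Cfp (chrX:20791688-20797794) are on the minus strand. The counts of C4b, Cfb, Cfi and Cd55 are less certain. C4b has the close paralog C4a at 65156 bases, Cd55 has Cd55b at 15653 bases, and Cfb ends 18 bases from C2. On the opposite strand Cfi overlaps the counted gene Gm36180 by 31269 bases, Cfb overlaps Nelfe by 3865 bases and Cd55 overlaps Gm16083 by 797 bases, and without strand their reads could not be told apart.

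The promoter of C3 is shown because C3 is the gene on which the results turn. It covers 250 bases before and 50 after the annotated start (RefSeq, GRCm38.p6, chr17:57228087-57228386, minus strand), and capitals mark letters that match TTNNGNAA, a pattern of C/EBP transcription factors searched on both strands, or TATAAA, searched on the gene's strand.
C3: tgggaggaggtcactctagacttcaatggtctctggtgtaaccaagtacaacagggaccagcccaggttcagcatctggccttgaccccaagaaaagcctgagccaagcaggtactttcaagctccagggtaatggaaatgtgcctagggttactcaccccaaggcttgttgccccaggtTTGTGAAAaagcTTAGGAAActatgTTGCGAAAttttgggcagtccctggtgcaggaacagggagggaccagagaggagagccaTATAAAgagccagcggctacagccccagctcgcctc
The window held TTNNGNAA 3 times, from 70, 58 and 45 bases before the start. Of 32851 promoters of this length, 40.7% held it at least once and 3.60% held it 3 or more times. TATAAA began 15 bases after the annotated start and was in 8.32% of promoters. Of 3 other patterns searched on both strands, that of NF-kB matched 4 times, 2 of these overlapping, where 13.6% of promoters held it 3 or more times. TTCNNNGAA of STAT factors and the interferon response pattern had no match. These matches describe letters and are not evidence of binding.

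Across the 6 libraries, 11058 to 14449 barcodes carried 93172739 to 137819127 unique molecular identifiers (UMIs, 1 per captured transcript), and 55630 cells were kept. Cells were grouped into 19 named types by markers, with the complement genes left out of the clustering. 2 clusters stayed unnamed, a shallow one of 7415 cells and one led by Rpgrip1, with 628 of its 688 cells from DOCA-salt mouse 2. The calls of the 9 genes in all cells were the same without the Rpgrip1 cluster. Pairs of libraries shared 18 to 41 cell barcodes. Levels are given as CPM, a gene's share of all UMIs in the summed cells of 1 mouse, scaled to 1000000. Tests are edgeR quasi-likelihood F tests of 3 against 3 mice, with p-values adjusted by Benjamini-Hochberg over every gene tested in that sum, and a call is an adjusted p under 0.05.

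In the sum of all cells, C3 and 6 other members rose in DOCA-salt kidneys, Cd55 fell, and Cfb did not pass the test. Among 19658 genes tested, 11.5% were called higher and 5.69% lower. The median log2 change of the 9 members was 2.13, against -0.02 over all genes tested. C3 measured 13.6, 14.9 and 15.4 CPM in the sham mice and 72.3, 63.5 and 73.2 CPM in the DOCA-salt mice. The groups were far apart, with a log2 change of 2.13 ± 0.11 (SE, adjusted p = 0.000183). The convertase genes went separate ways. C4b rose from 0.730, 0.721 and 1.08 CPM to 5.25, 6.95 and 5.81 CPM (log2 change 2.72 ± 0.21, adjusted p = 0.000338), whereas Cfb stood at 91.5, 100.3 and 91.8 CPM in sham and 91.4, 87.7 and 87.6 CPM in DOCA-salt mice (log2 change -0.20 ± 0.09, adjusted p = 0.149).

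The inhibitors Cfi and Serping1 had the largest changes of the 9 in the sum of all cells. Cfi rose from 2.75, 4.62 and 3.41 CPM to 30.7, 30.3 and 39.5 CPM (log2 change 3.11 ± 0.20, adjusted p = 0.000183). Serping1 rose from 7.21, 6.81 and 5.65 CPM to 50.5, 76.2 and 92.7 CPM (log2 change 3.35 ± 0.21, adjusted p = 0.000183). Cfp rose from between 0.927 and 1.29 CPM in sham mice to between 2.08 and 3.44 CPM in DOCA-salt mice (log2 change 1.25 ± 0.23, adjusted p = 0.00859). The receptors rose as well: C3ar1 from 2.57, 2.33 and 2.44 CPM to 9.08, 18.3 and 18.5 CPM (log2 change 2.52 ± 0.26, adjusted p = 0.000862), and C5ar1 from 5.11, 4.37 and 4.96 CPM to 11.2, 18.8 and 24.9 CPM (log2 change 1.80 ± 0.25, adjusted p = 0.00294). For both receptors the groups stood apart, and DOCA-salt mouse 1 was the lowest of its group for both. Cd55 was 10.1, 11.1 and 9.19 CPM in sham and 7.33, 6.43 and 8.78 CPM in DOCA-salt mice (log2 change -0.55 ± 0.14, adjusted p = 0.0347), a call that ended with library-size scaling (adjusted p = 0.0885) and when any mouse but DOCA-salt 3 was left out (0.0511 to 0.124).

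**Figure D1:**
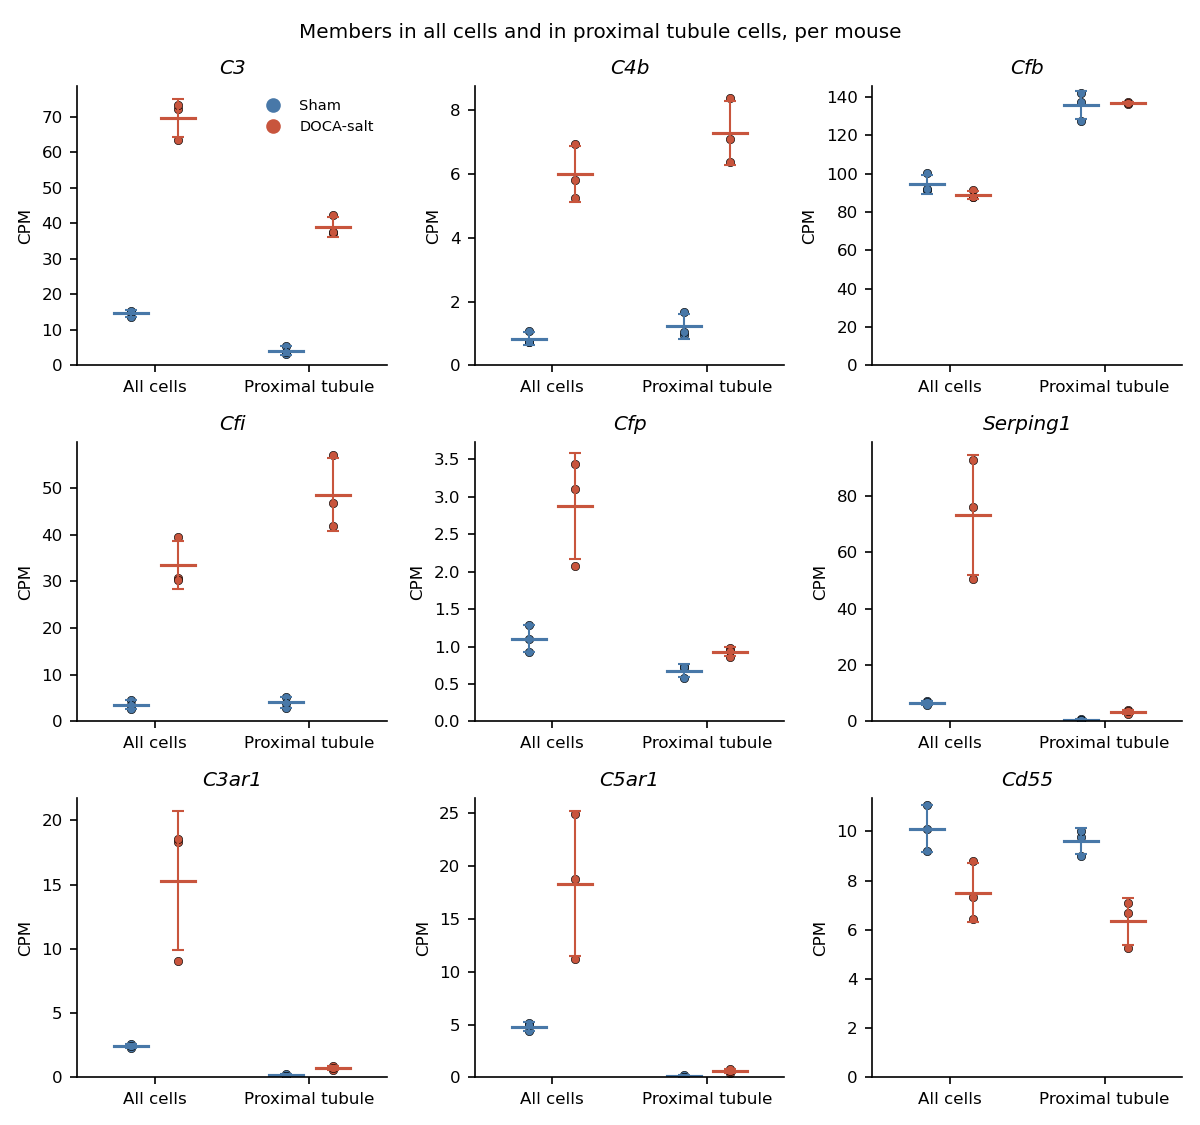
Level of each member in CPM (vertical axis) for all cells and for proximal tubule cells; each point is 1 mouse (blue sham, red DOCA-salt), the horizontal line the mean and the error bar the SD (n = 3). C3 and Cfi separate the groups in both sums, Cfb does not in proximal tubule cells, and Serping1, C3ar1 and C5ar1 are far lower in proximal tubule cells than in all cells.

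A change in all cells also moves with the makeup of the kidney. Macrophages were 1.58% ± 0.19 of cells in sham and 6.50% ± 1.38 in DOCA-salt mice (SD, n = 3), and fibroblasts 0.137% ± 0.092 and 2.90% ± 0.40. With macrophages, fibroblasts and parietal-like cells left out, the log2 change of C3 was 2.95 and that of Serping1 1.63, and that of Cd55 missed the threshold (-0.48, adjusted p = 0.0604). The members differed in the cells that held their UMIs. A parietal-like class held 71.7% of sham and 56.0% of DOCA-salt C3 UMIs, and it mixed parietal-like with injured tubule cells. Proximal tubule cells held 136769835 of the 223468081 sham UMIs of all genes. They held 86.5% and 87.5% of the sham UMIs of C4b and Cfb, and 68.8% of those of Cfi, nearer the share of all genes. C3ar1 and C5ar1 were macrophage genes, with 88.7% and 91.9% of sham and 90.1% and 91.2% of DOCA-salt UMIs there. At a finer clustering (Leiden resolution 2) these shares were 58.7% and 62.4% in sham and 84.4% and 85.7% in DOCA-salt mice. Fewer cells were named macrophages there, 108, 85 and 92 against 160, 134 and 136 in sham mice. In DOCA-salt mice they were 397, 596 and 632 against 436, 681 and 724. The shares of the 2 clusterings therefore cover different cells. Serping1 was spread in sham mice over parietal-like cells (30.4%), smooth muscle cells or pericytes (28.3%) and fibroblasts (28.2%), and lay in fibroblasts in DOCA-salt mice (84.7%). Cfp was split, with 37.8% of sham UMIs in proximal tubule, below the share of all genes there, and 19.1% in dendritic cells. In DOCA-salt mice 30.4% of its UMIs lay in macrophages and 22.5% in dendritic cells.

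**Figure D2:**
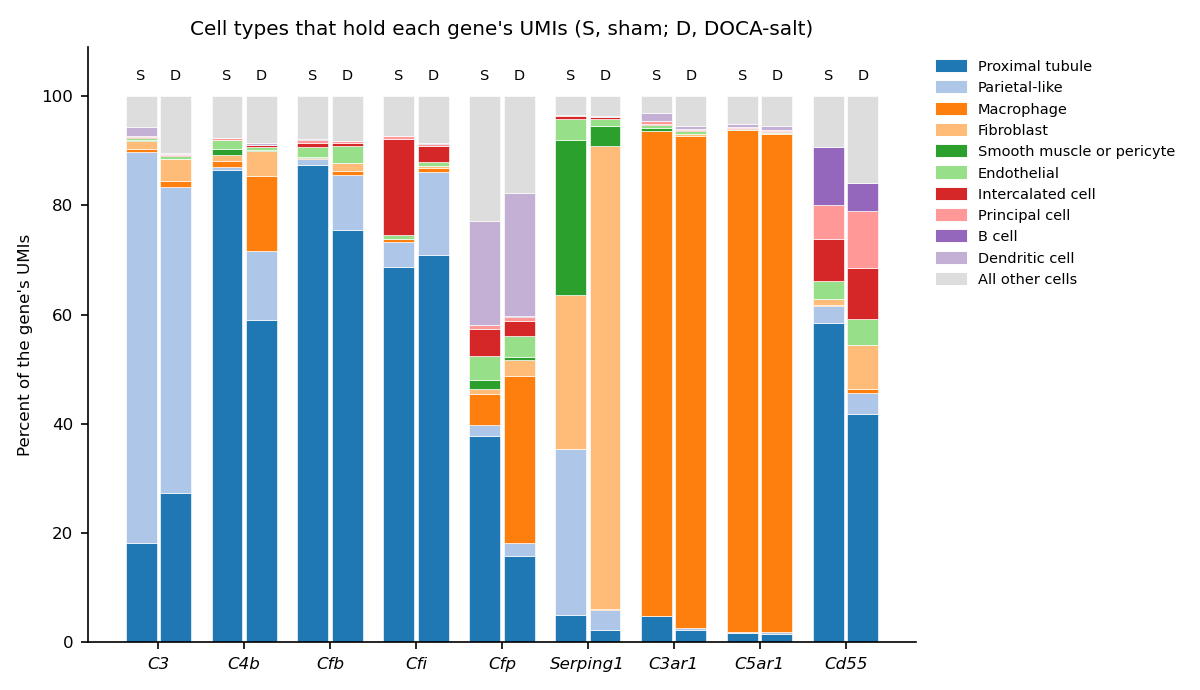
Percent of each gene's UMIs (vertical axis) held by each cell type, with all sham mice (S) and all DOCA-salt mice (D) pooled. Macrophages hold 90.1% of C3ar1 and fibroblasts 84.7% of Serping1 in DOCA-salt mice, and proximal tubule cells hold the most Cfb and Cfi in both groups.

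Proximal tubule cells, the reabsorbing cells, made up 25123 of the 55630, and all 9 members could be tested in them. Of 16090 genes tested there, 4.99% were called higher and 2.36% lower, and of the 9 members 6 were called higher (C3, C4b, Cfi, Serping1, C3ar1, C5ar1) and 1 lower (Cd55). C3 rose from 5.49, 3.18 and 3.78 CPM to 37.2, 37.6 and 42.2 CPM (log2 change 3.17 ± 0.18, adjusted p = 0.000161). Cfi rose from 2.96, 5.24 and 3.97 CPM to 41.9, 46.8 and 57.1 CPM (log2 change 3.53 ± 0.22, adjusted p = 0.000249). C4b rose from 0.958, 1.04 and 1.67 CPM to 6.38, 8.37 and 7.10 CPM (log2 change 2.54 ± 0.23, adjusted p = 0.000740). For these 3 genes every DOCA-salt mouse was above every sham mouse, and the call held under all 14 alternatives, leaving out each mouse included. Cfb, the gene of the convertase that pairs with C3b, stood at 128, 142 and 137 CPM in sham and 136, 137 and 137 CPM in DOCA-salt mice (log2 change -0.05 ± 0.10, adjusted p = 0.825).

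In each of the 7 clusters named proximal tubule, every DOCA-salt mouse exceeded every sham mouse for both C3 and Cfi. The unnamed clusters are not among them. The same held for Serping1 in 7 clusters and for C4b in 6, so this pattern does not set C3 and Cfi apart. In the sum of the proximal tubule 19.2% of genes tested were higher and 9.81% lower without overlap, and the share within single clusters was not computed. In DOCA-salt mice C3 was highest in the cluster led by Ugt2b34 and marked by Slc5a2, the glucose transporter of the early segment (2.76 to 3.71 CPM in sham and 75.1 to 84.8 CPM in DOCA-salt mice). In those mice it was lower in the cluster led by Slc7a13, a transporter of the late segment (2.86 to 4.53 and 24.4 to 42.6 CPM), and lowest on average in the cluster led by Necab2 (3.50 to 5.23 and 12.6 to 16.4 CPM). The sham ranges of these 3 clusters overlapped or lay close together, within 2.76 to 5.23 CPM. Cfi too was highest on average in the Ugt2b34 cluster of DOCA-salt mice (87.4 to 101 CPM). In those mice it was at 38.2 to 55.6 CPM in the Slc7a13 cluster and 9.84 to 14.9 CPM in the Necab2 cluster. Cfi was lowest in a cluster led by Serpina1f (3.97 to 7.85 CPM), and the part of RNA free in the droplets in that level was not tested. Cfb did not move one way: it was higher in DOCA-salt mice without overlap in 2 of the 7 clusters and lower in 3.

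A larger share of proximal tubule cells held a C3 UMI in DOCA-salt mice. At the thinned depth this share follows the mean level, so it cannot tell more expressing cells from more C3 per cell. Thinned to 1000 UMIs per cell, 0.409% ± 0.099 of sham and 2.88% ± 0.43 of DOCA-salt cells held a C3 UMI (SD, n = 3; 3.31% and 15.2% unthinned, at median depths of 9668 and 9946 UMIs; 701 and 645 shallower cells left out). The exact permutation test gave p = 0.1, the smallest it can give for 3 against 3. Cfi rose from 0.397% ± 0.108 to 4.19% ± 0.73 of cells, and Cfb held 12.3% in both groups. RNA free in the droplets gives UMIs to cells that do not express a gene, and T or NK cells were taken as a measure of it. They held a C3 UMI in 0% of sham and 0.570% ± 0.469 of DOCA-salt cells and a Cfi UMI in 0.0733% ± 0.1269 and 0.492% ± 0.276 (median depths 3194 and 3877 UMIs). B cells held no C3 UMI in either group, at median depths of 2536 and 2816 UMIs. They numbered only 29, 18 and 14 in DOCA-salt mice, so their level is imprecise. The proximal tubule stood above the mean T or NK level for C3, Cfi and C4b, the last with 0.644% ± 0.093 of DOCA-salt cells against 0.192% ± 0.333. For C4b the T or NK level is imprecise, as it rests on 3 UMIs.

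Other changes in proximal tubule cells were small in level. Serping1 rose from 0.714, 0.346 and 0.500 CPM to 2.48, 3.93 and 3.70 CPM (log2 change 2.60 ± 0.29, adjusted p = 0.00177), with 0.343% of thinned DOCA-salt cells holding a UMI against 0.906% of T or NK cells. C3ar1 and C5ar1 stayed below 1 CPM in every mouse (log2 changes 1.83 ± 0.38 and 2.12 ± 0.50, adjusted p = 0.0239 and 0.0378), and 0.0890% and 0.0548% of thinned DOCA-salt cells held their UMIs, against 0.0761% and 0.108% of T or NK cells. T or NK cells held few UMIs of these genes, so that level is imprecise, and no expression by proximal tubule cells is claimed from the 3 calls. The 2 receptors also lost their calls without sham 3 (adjusted p = 0.0688 and 0.109), without DOCA-salt 2 (0.0866 and 0.105) and without DOCA-salt 3 (0.0817 and 0.138), and C5ar1 without DOCA-salt 1 (0.0512). With the replicate number as a block both missed the threshold too (0.105 and 0.138). When single mice were left out the log2 change ran from 1.63 to 2.40 for C3ar1 and from 1.75 to 3.08 for C5ar1. C1qa, C1qb and C1qc, which macrophages make, rose in proximal tubule cells (log2 changes 2.50, 2.07 and 2.19). Of the other macrophage genes followed there, Adgre1 averaged 0.0981 CPM in sham and 0.872 CPM in DOCA-salt mice without overlap, whereas Cd68 (0.741 and 0.894 CPM) and Csf1r (51.3 and 47.7 CPM) overlapped between the groups. The part of RNA from macrophages in these calls was not tested. Cfp did not pass (log2 change 0.40 ± 0.22, adjusted p = 0.313). Cd55 was 9.79, 10.0 and 8.99 CPM in sham and 6.69, 5.27 and 7.10 CPM in DOCA-salt mice (log2 change -0.66 ± 0.14, adjusted p = 0.0263), and the call ended when any mouse but sham 2 was left out (adjusted p = 0.0644 to 0.0823) and with the replicate number as a block (0.125).

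The class that held most C3 UMIs was small. It carried Wt1, Ncam1 and Cldn1, markers of the parietal epithelium that lines the glomerular capsule, and numbered 86 to 128 cells in sham and 212 to 285 in DOCA-salt mice. C3 there was 719, 543 and 590 CPM in sham and 831, 567 and 575 CPM in DOCA-salt mice (log2 change 0.17 ± 0.17, adjusted p = 0.520). The groups overlapped. Of 12148 genes tested in this class, 11.3% were called higher and 12.2% lower, and among the members Cfi (log2 change 3.25 ± 0.30), C4b (5.51 ± 0.62) and Cfb (1.57 ± 0.23) rose while Serping1 (-1.38 ± 0.18) and Cd55 (-1.93 ± 0.30) fell (adjusted p at most 0.000741). C4b rested on 1 UMI in sham and 204 in DOCA-salt cells, a ratio of 49.0 per UMI sequenced (95% exact counting interval 8.70 to 1946).

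That class was a mixture, and finer clustering took it apart. At Leiden resolution 2 the parietal-like cells numbered 71, 90 and 84 in sham and 54, 93 and 58 in DOCA-salt mice, and a further class with markers of injured tubule (Havcr1, the kidney injury molecule; Sox9; Vcam1) numbered 16, 36 and 51 in sham and 214, 248 and 295 in DOCA-salt mice. In DOCA-salt mice Havcr1 averaged 117 CPM in the injured class and 1.22 CPM in parietal-like cells. Sox9 (140.1 and 147 CPM) and Vcam1 (280 and 302 CPM) did not set the classes apart there. In sham mice each of these markers averaged higher in the injured class. The injured tubule sum was added after the coarser values were seen. Of the 4 members tested by edgeR in the parietal-like cells of that clustering none passed, with C3 (-0.50) and Cd55 under an unadjusted p of 0.05, as were 1226 of 9779 genes. The log2 change of Cfb was 0.49 (adjusted p = 0.715), that of Serping1 -0.05 (0.958) and that of Cd55 -1.60 (0.113). Cfi and C4b were not tested there.

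Injured tubule cells were rich in C3 in both groups. C3 was 839, 517 and 546 CPM in sham and 796, 508 and 518 CPM in DOCA-salt mice, with overlapping groups (log2 change -0.05 ± 0.21, adjusted p = 0.950). They held 26.4% of all C3 UMIs in sham (17.6% to 35.8% by mouse) and 52.1% in DOCA-salt mice (45.6% to 57.6%). Parietal-like cells held 45.8% and 8.54%, and the proximal tubule 17.6% and 22.9%. Markers of the class did not move one way between the groups. Havcr1 averaged 9.84 CPM in sham and 117 CPM in DOCA-salt mice and Lcn2 2.13 and 12.5 CPM, whereas Sox9 averaged 256 and 140.1 CPM, Krt20 27.0 and 15.03 CPM and Vcam1 293 and 280 CPM. The parietal marker Wt1 averaged 128 and 18.7 CPM. C3 was among the genes that led this cluster, although it was not used for clustering. Of 11240 genes tested in injured tubule cells, 1.52% were called higher and 4.28% lower, and 2 members were called higher. Cfi rose from 31.1, 12.7 and 29.0 CPM to 130.2, 91.2 and 130.4 CPM (log2 change 2.31 ± 0.28, adjusted p = 0.000131). C4b had 2 UMIs in the sham cells and 270 in the DOCA-salt cells, a ratio of 12.3 (95% counting interval 3.37 to 102; log2 change 3.57 ± 0.62, adjusted p = 0.00234). Cfb was 128, 102 and 154 CPM in sham and 187, 194 and 178 CPM in DOCA-salt mice, and did not pass (log2 change 0.52 ± 0.17, adjusted p = 0.0917).

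**Figure D3:**
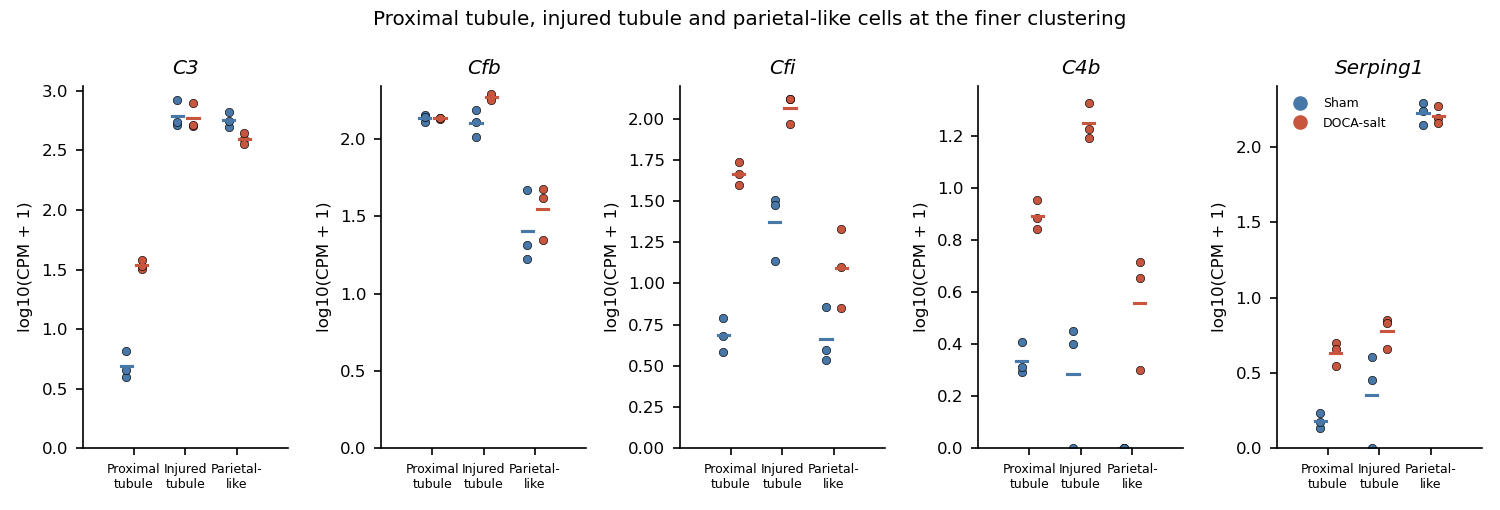
Levels of 5 members as log10(CPM + 1) (vertical axis) in proximal tubule, injured tubule and parietal-like cells at Leiden resolution 2; each point is 1 mouse and each line the mean (n = 3 per group). C3 is at 508 to 839 CPM in injured tubule cells of both groups, whereas Cfi there lies at 12.7 to 31.1 CPM in sham and 91.2 to 130.4 CPM in DOCA-salt mice.

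The order of C3 over the 19 types of the coarser clustering was led in both groups by the parietal-like class that includes injured tubule cells (617 ± 91 and 658 ± 150 CPM, SD, n = 3). At the finer clustering injured tubule cells averaged 634 and 607 CPM and parietal-like cells 568 and 398 CPM. In DOCA-salt mice urothelial (120 ± 51), neutrophil (99.2 ± 53.4), cycling (83.4 ± 32.6), fibroblast (77.4 ± 46.3) and monocyte (63.3 ± 26.7) cells followed and did not differ beyond their spread. The neutrophil and monocyte levels rest on only 12 and 15 C3 UMIs, so their places are uncertain. Proximal tubule cells (39.0 ± 2.8) stood next, within the range of monocytes and above macrophages (21.3 ± 2.4). Thin limb (27.3 ± 27.3) and dendritic cells (19.2 ± 16.1) could not be placed. All other types lay between 0 CPM (B cells, only 29, 18 and 14 cells) and 11.2 CPM (distal convoluted tubule). In sham mice fibroblasts were next to the top, with 178, 228 and 148 CPM, all above the 130.1, 59.3 and 43.0 CPM of DOCA-salt fibroblasts. With 24, 6 and 9 sham fibroblasts this difference was not tested. Urothelial cells had no C3 UMI in 19 sham cells and 239 in 85 DOCA-salt cells, at least 12.8-fold higher when 3 counts over the sham group are taken as the floor.

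**Figure D4:**
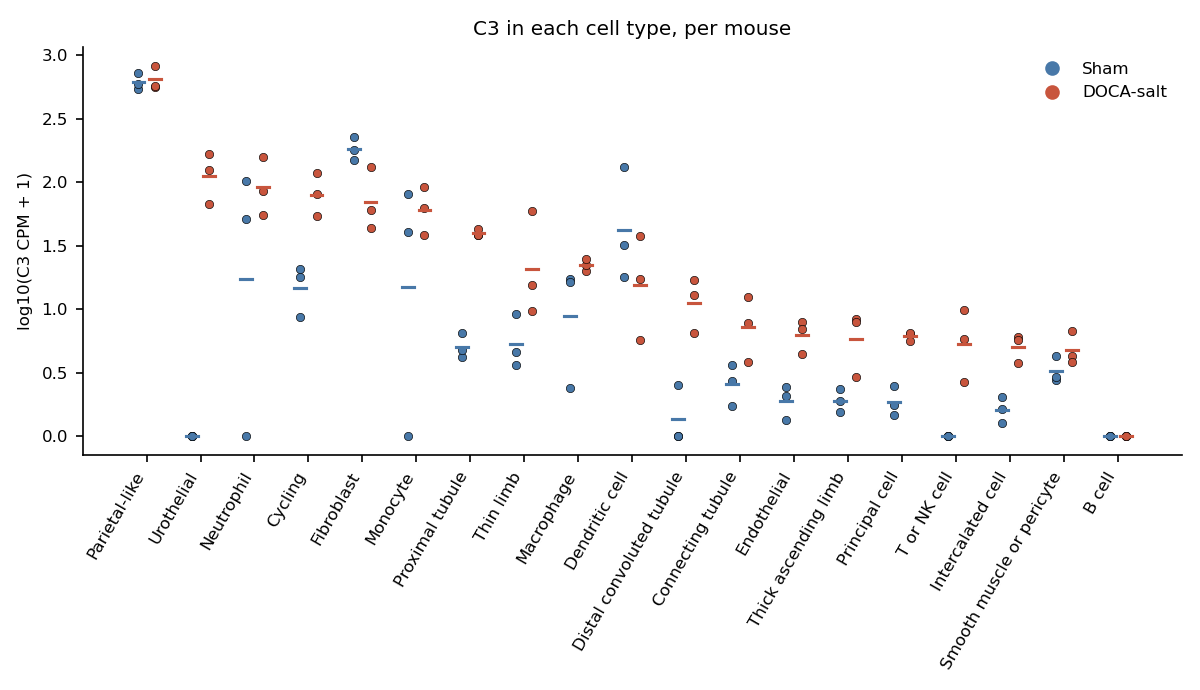
C3 as log10(CPM + 1) (vertical axis) in each of the 19 named cell types, ordered by the DOCA-salt mean; each point is 1 mouse (blue sham, red DOCA-salt) and each line the group mean (n = 3). The parietal-like class, which here includes injured tubule cells, is highest in both groups, and proximal tubule cells separate the groups. B cells, few in DOCA-salt mice, have no C3 UMI.

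In the distal nephron and the endothelium C3 passed the test at low levels. It rose in distal convoluted tubule (0 to 1.55 CPM in sham and 5.56 to 16.1 CPM in DOCA-salt mice, adjusted p = 0.00410, where 4.55% of genes were called higher), in intercalated cells (0.265 to 1.05 and 2.81 to 5.01 CPM, adjusted p = 0.00766, 3.43%) and in endothelial cells (0.341 to 1.44 and 3.46 to 7.01 CPM, adjusted p = 0.0117, 5.22%). In thick ascending limb it missed the threshold (adjusted p = 0.0595) but passed with DESeq2 (0.00412). The distal convoluted tubule call rested on 2 sham UMIs against 90, a ratio of 19.996 (95% counting interval 5.38 to 168), and was lost without sham 3 (0.0564), and the endothelial call was lost without sham 1 (0.0551). Thinned shares of cells with C3 were 0.740% ± 0.305, 0.399% ± 0.142, 0.599% ± 0.230 and 0.540% ± 0.137 in DOCA-salt mice. These shares lay within the spread of the 0.570% ± 0.469 in T or NK cells, which held 10 C3 UMIs in all. The share was 0% in B cells, but they numbered only 29, 18 and 14 in DOCA-salt mice, too few to place other types above them. The part of free RNA in these calls was not tested. Serping1 rose in endothelial cells (4.78, 6.82 and 5.75 CPM to 14.4, 11.2 and 16.7 CPM, log2 change 1.31 ± 0.25, adjusted p = 0.00932) to 0.891% of cells, also at the level of T or NK cells, and lost its call without sham 1 (adjusted p = 0.0511). Serping1 in intercalated cells (log2 change 2.93 ± 0.55, adjusted p = 0.00994) and both Serping1 and Cfi in thick ascending limb (2.02 ± 0.44 and 3.81 ± 0.46, adjusted p = 0.0464 and 0.00260, where 0.715% of genes were called higher) passed at shares of 0.710%, 0.330% and 0.547%, which were no higher than those of T or NK cells beyond their spread. The Serping1 call in thick ascending limb ended with DESeq2 (adjusted p = 0.0712), with the replicate number as a block (0.148) and when any mouse but sham 2 was left out (0.0785 to 0.164).

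Cfi in intercalated cells, the acid and base secreting cells of the collecting duct, stood above the T or NK level. It measured 8.78, 14.0 and 7.55 CPM in sham and 17.4, 17.7 and 19.97 CPM in DOCA-salt mice (log2 change 0.91 ± 0.22, adjusted p = 0.0307), with 1.84% ± 0.19 of thinned DOCA-salt cells carrying it. The call was lost when any mouse but sham 2 was left out (adjusted p = 0.0559 to 0.132), with the replicate number as a block (0.119) and with barcodes of at most 20% mitochondrial UMIs (log2 change 0.17, adjusted p = 0.833). The change was smaller than in proximal tubule cells by 2.64 ± 0.19 on the log2 scale (model with mouse as a block, adjusted p = 5.14e-07, where 8.41% of genes differed). In sham mice the level in intercalated cells was above that of the proximal tubule, and in DOCA-salt mice below it.

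Cd55 went in opposite directions along the nephron. In principal cells, which set sodium and water uptake in the collecting duct, it was 18.6, 24.7 and 19.1 CPM in sham and 27.9, 34.2 and 37.9 CPM in DOCA-salt mice, with no overlap (log2 change 0.73 ± 0.20, adjusted p = 0.0486, where 4.12% of genes were called higher). That call did not hold with DESeq2 (adjusted p = 0.0956), with library-size scaling (0.0620), with at most 20% mitochondrial UMIs (0.0746), with the replicate number as a block (0.111), or without sham 1, sham 3, DOCA-salt 2 or DOCA-salt 3 (0.125 to 0.188). The difference between this change and the fall in proximal tubule cells was 1.40 ± 0.22 (adjusted p = 0.000432, where 7.31% of genes differed) and passed under all 7 alternatives. B cells had the highest Cd55 of any type, with 477, 745 and 519 CPM in sham and 382, 659 and 621 CPM in DOCA-salt mice, with overlapping groups (log2 change -0.09 ± 0.28, adjusted p = 0.994).

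**Figure D5:**
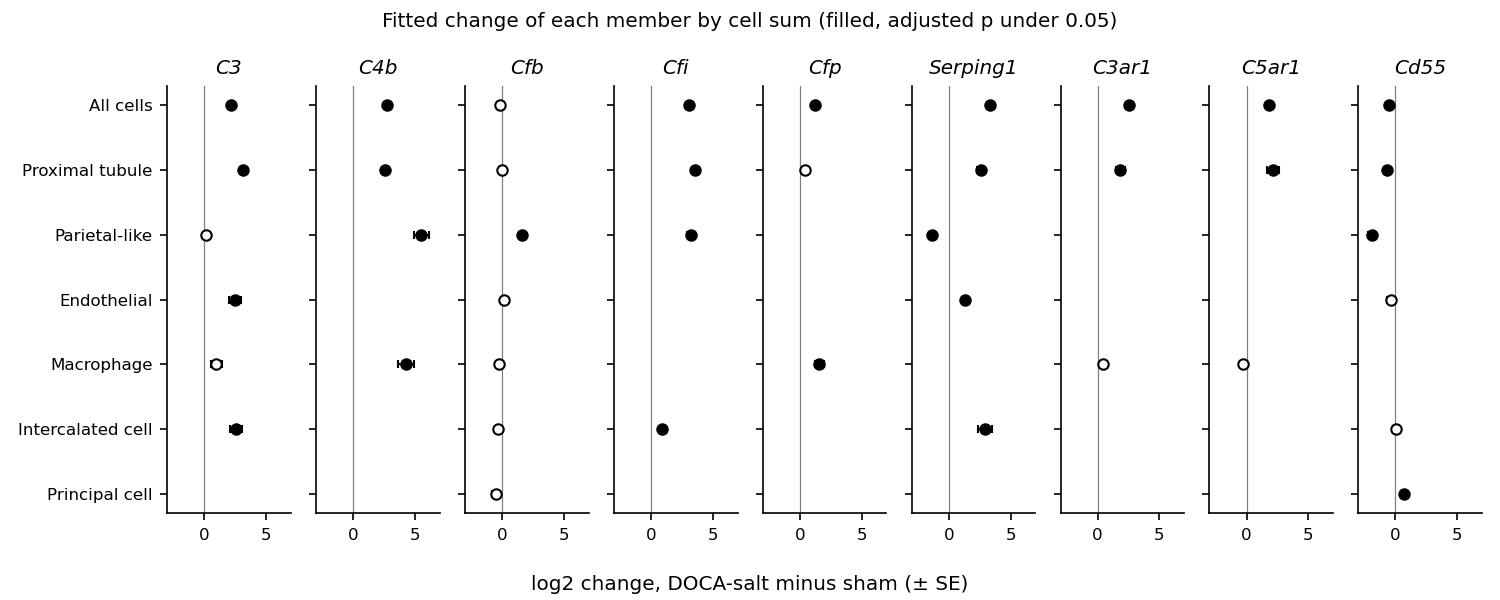
Fitted log2 change (horizontal axis, DOCA-salt minus sham, bars SE, 3 mice per group) of each member in 7 sums of cells; filled points have an adjusted p under 0.05 and a missing point was not tested for low counts. Cfi and C3 lie to the right of 0 in proximal tubule cells, Cfb lies on 0 there, and Cd55 lies left of 0 in proximal tubule and right of 0 in principal cells.

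In macrophages, which held most receptor UMIs, neither receptor passed the test. C3ar1 was 294, 249 and 273 CPM in sham and 341, 447 and 372 CPM in DOCA-salt mice (log2 change 0.43 ± 0.15, adjusted p = 0.112), higher in each DOCA-salt mouse than in each sham mouse, and passed without the filter on low counts (0.0489) and at Leiden resolution 2 (0.0494). C5ar1 was 617, 479 and 564 CPM in sham and 440, 462 and 498 CPM in DOCA-salt mice (log2 change -0.33 ± 0.15, adjusted p = 0.226). Both rises in all cells stood beside the larger share of macrophages given above. In a model of both sums with mouse as a block, the changes of C3, C3ar1 and C5ar1 in macrophages were smaller than those in pooled tubular cells, where 6.02% of genes differed between these sums. For C3 this call was lost without sham 2 (adjusted p = 0.234) and without sham 3 (0.123). Of 9150 genes tested, 3.27% were called higher, and 2 members were. Cfp rose from 8.48, 9.01 and 5.82 CPM to 21.7, 29.2 and 23.2 CPM (log2 change 1.58 ± 0.35, adjusted p = 0.00950), a call lost without sham 1 (0.0602) and at Leiden resolution 2 (0.0644). C4b had 2 UMIs in sham macrophages and 222 in those of DOCA-salt mice, a ratio of 21.4 (95% counting interval 5.86 to 178; log2 change 4.24 ± 0.66, adjusted p = 0.000873). Serping1 had no UMI in sham macrophages and was at least 3.54-fold higher in DOCA-salt ones, at 0.604% of thinned cells, against 0.906% of T or NK cells.

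Different macrophages made up the class in the 2 groups. A cluster led by Mmp13 and Ccl4 held 66.5% of sham macrophages and 2.44% of those from DOCA-salt mice, which lay mostly in clusters led by Ccl12 (23.5%), Ptpro (22.6%), Lyz2 (16.1%) and Ccl8 (15.3%). Within the Mmp13 cluster the log2 changes of C3ar1 and C5ar1 were 0.38 and 0.06, and in a cluster led by H2-Eb2 they were 0.70 and 0.07 (adjusted p at least 0.602). C4b and Cfp were too low to be tested in either. C3 in macrophages was 1.41, 16.2 and 15.5 CPM in sham and 18.9, 21.2 and 23.8 CPM in DOCA-salt mice (log2 change 0.99 ± 0.44, adjusted p = 0.226). At Leiden resolution 2 fewer sham cells were named macrophages (108, 85 and 92 against 160, 134 and 136), and they held 48 C3 UMIs. The change there had the opposite sign (-0.66 ± 0.26, adjusted p = 0.152), so no direction is given for C3 in macrophages.

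Fibroblasts carried the highest Serping1 of any type, at 1815, 1617 and 1071 CPM in sham and 1599, 1532 and 1654 CPM in DOCA-salt mice. The groups overlapped, with 24, 6 and 9 fibroblasts in sham and 217, 296 and 307 in DOCA-salt mice. Smooth muscle cells or pericytes had 247, 247 and 259 CPM in sham and 393, 367 and 380 CPM in DOCA-salt mice without overlap, and missed the threshold (log2 change 0.56 ± 0.16, adjusted p = 0.0904). In cycling cells, a mixed class in which macrophage genes also rose (C1qa by 4.29), C3 (log2 change 2.16 ± 0.36) and Cfi (2.48 ± 0.45) were called higher, where 12% of genes were, as were C3ar1 and C5ar1 from 2 sham UMIs each.

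The rest of the complement system was followed in a list of 45 genes of the classical, lectin and terminal arms, regulators and receptors. In all cells 34 were tested, of which 16 rose and 4 fell, against 11.5% and 5.69% of all genes. Their median log2 change was 0.79, against -0.02 over all genes. Among the rises were C6 of the membrane attack complex (log2 change 4.09 ± 0.47) and the collectins Colec12 (4.01 ± 0.23) and Colec11 (3.49 ± 0.72). The falls were Cr2, the receptor for C3 fragments (-2.06 ± 0.18), the lectin-arm genes Mbl2 (-1.38 ± 0.38) and Masp2 (-0.90 ± 0.21), and the attack complex inhibitor Cd59b (-0.82 ± 0.23). With macrophages, fibroblasts and parietal-like cells left out, 10 of 31 were called higher and 2 lower, where 1223 and 584 of 19226 genes were. Their median log2 change was then 0.36, against -0.02 over all genes. Of the genes just named, Colec12, Cr2 and Masp2 kept a call, and C6, Colec11, Mbl2 and Cd59b did not. In proximal tubule cells 9 of 24 rose and none fell, against 4.99% and 2.36% of all genes, and those that rose included C1qa (2.50 ± 0.30), C1s1 (2.47 ± 0.29) and Masp1 (2.23 ± 0.33).

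Cr2 fell in 3 types of the distal nephron. In connecting tubule it was 17.7 to 27.8 CPM in sham and 0 to 2.30 CPM in DOCA-salt mice (log2 change -4.52 ± 0.54), where 11.4% of genes were called lower. It also fell in principal (-1.79 ± 0.29) and intercalated cells (-2.79 ± 0.37), where 3.37% and 3.25% were. Clu, a fluid-phase inhibitor of the attack complex, fell in the coarser parietal-like class (-0.80 ± 0.23), where 12.2% of genes were called lower. That class mixed parietal-like with injured tubule cells, and the part of its changed mix in this fall was not tested. Clu rose in connecting tubule (1.32 ± 0.31), intercalated cells (1.12 ± 0.28) and smooth muscle cells or pericytes (1.71 ± 0.27), where 11.4%, 3.43% and 0.884% of genes were called higher. In endothelial cells 3 of 17 rose, all C1q chains, where 5.22% of all genes were called higher, and Cd46 fell (-0.85 ± 0.21), where 3.64% were called lower. C1qa, a macrophage gene, averaged 11.7 CPM in DOCA-salt endothelial, 10.4 CPM in proximal tubule, 10.1 CPM in thick ascending limb and 9.16 CPM in intercalated cells, against at least 4501 CPM in macrophages, and the part of macrophage RNA in its calls was not tested. In macrophages 2 of 12 rose, Itgam (1.67 ± 0.20) and Itgb2 (0.77 ± 0.20), the chains of complement receptor 3, against 3.27% of all genes called higher, and C1qa did not pass (0.16, adjusted p = 0.672).

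The genes whose levels ran most closely with C3 were found by Pearson's correlation of log2(CPM + 1) over 96 sums, 6 mice by 16 types, among 11490 genes. They were Cldn1 (r = 0.739), D630011A20Rik (0.729), Gm19935 (0.709), Ubd (0.709) and Stc2 (0.706). The 6 points of a type share cells of the same kind, so these values are a description. All 5 were higher in the mixed parietal-like class, where C3 is highest, than in proximal tubule cells or macrophages. Their choice by correlation with C3 favors this, and Cldn1 is also a marker used to name that class. At the finer clustering Ubd and D630011A20Rik were among the genes that led injured tubule, not parietal-like cells. In the mixed class, Cldn1 averaged 183 CPM in sham and 171 CPM in DOCA-salt mice, against 7.26 and 13.8 CPM in proximal tubule cells.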

How the data were processed

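Libraries of 10x 3′ chemistry were made by the authors from kidneys of 3 sham and 3 DOCA-salt mice, and deposited as UMI counts per gene and barcode on GRCm39. The submitters' notes name Cell Ranger 9.0.0 and the file headers 8.0.1, and strand-specific counting is not given in the sources used here. Barcodes were kept (60561 of 76774) if they had 170 genes and 500 UMIs or more, and if mitochondrial genes took no more than 50% and hemoglobin genes no more than 5% of their UMIs. Cells with the highest Scrublet scores were removed as presumed doublets (4931 cells, scanpy 1.11.5). Their number was set by an assumed rate of 0.8% per 1000 cells. Scrublet's own threshold called 275. Clustering used 2000 variable genes without complement genes, 30 components and Leiden resolution 1, and immune cells were clustered again.

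Counts were summed per mouse and type (at least 10 cells in each mouse), scaled by TMM and tested with edgeR 4.0.16 after its low-count filter. Differences between types used 1 model with mouse as a block. In simulated counts 200 genes changed 2-fold or 4-fold, and smaller changes were not simulated. In all cells (19460 genes) 83.5% were recovered, 70.7% at 2-fold and 97% at 4-fold, with 13 false among 180 calls. In macrophages (8918 genes) 68.5% were recovered, 51.6% at 2-fold and 98.9% at 4-fold, with 8 false among 145 calls. The threshold was an adjusted p of 0.05. Intervals cover counting error only. Motifs were searched in RefSeq promoters, which held 5 of the 9 members.

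The members, lists, pairs and clusters were chosen with earlier results of these data known. Named were all 9 members in each sum, up to 4 other complement genes with the largest rises and falls that passed, and the 5 genes closest to C3. 1 gene that this rule names is not reported here. The C1q chains beside the tubular receptors, the injured tubule sum, the macrophage and endothelial subclusters and the pairs with proximal tubule were chosen after seeing the data. Alternatives were DESeq2 1.42.0, other scalings, no low-count filter, a replicate block, each mouse left out, 20% mitochondrial UMIs, no doublet removal and Leiden resolution 2.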

Additional observations from a re-analysis of the deposited data

Results flagged for a closer look

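The change of 6 results differed between cell types in the same mice (edgeR model with mouse as a block, adjusted over all genes). Relative to tubular cells, the change in macrophages was lower for C3 by a log2 difference of -1.99 ± 0.45 (SE, adjusted p = 0.000575), for C3ar1 by -1.31 ± 0.29 (adjusted p = 0.000311) and for C5ar1 by -2.24 ± 0.31 (adjusted p = 1.73e-10), where 6.02% of 17538 genes differed. C3 lost this call without sham 2 (-1.36, adjusted p = 0.234) and without sham 3 (-1.52, adjusted p = 0.123). Over the fits that left out single mice its difference ran from -2.99 to -1.36. The tubular changes of C3ar1 and C5ar1 were below 1 CPM, and their source was not tested. Of the macrophage genes followed in tubular cells, the C1q chains and Adgre1 were higher in DOCA-salt mice without overlap, whereas Cd68 and Csf1r overlapped between the groups. Relative to proximal tubule cells, the change of Cd55 was higher in principal cells by 1.40 ± 0.22 (adjusted p = 0.000432) and in intercalated cells by 0.70 ± 0.19 (adjusted p = 0.0340, passed under 1 of 7 alternatives). The change of Cfi was lower in intercalated cells by -2.64 ± 0.19 (adjusted p = 5.14e-07). Each of these compares changes that rest on 3 mice per group. The outlier test needs 4 samples in a group and was not run.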

How the results depend on the processing

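The 7 members called higher in all cells, and C3, C4b, Cfi and Serping1 in proximal tubule cells, kept their direction and call under every alternative run. No member result that passed in either fit changed sign. The count of members called lower in all cells, 1 (Cd55), was 0 with library size only, with the replicate block and without macrophages, fibroblasts and parietal-like cells, and 0 to 1 when a mouse was left out. In proximal tubule cells it was 0 with the replicate block and 0 to 1 by mouse, and the members called higher were 4 to 6 by mouse. In macrophages 2 were called higher, 4 without the filter on low counts, 0 in the Mmp13 and in the H2-Eb2 cluster (tests of few genes) and 1 to 2 by mouse. In endothelial cells 2 were called, 0 in the Plvap and in the Sox17 cluster, where only 1 and 3 members were tested, and 0 to 2 by mouse. Members that differed between endothelial and tubular cells were 0, and 0 to 1 by mouse. Same-numbered mice did not deviate together (correlations -0.02, -0.41 and -0.05), so the replicate numbers do not pair them. The share of proximal tubule cells with C3 was 0.816% and 5.01% at 2000 UMIs and 3.31% and 15.2% unthinned. Over values of single members, in a sum or between types, 1273 alternatives stayed on the same side of the threshold, called or not, 74 lost a call and 17 gained one. The cause was not tested. Alternatives by cluster and pair were chosen after seeing the data. Genes under about 1 CPM rest on few UMIs.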
